A study of Homo sapiens with 6 samples.

Results

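The genes described here encode 9 proteins that restrain mTORC1, the mechanistic target of rapamycin complex that couples cell growth to nutrients, growth factors and stress: DDIT4, SESN1, SESN2, SESN3, CASTOR1, TSC1, TSC2, AKT1S1 and DEPTOR. They were picked by gene symbol for this role, but with earlier results of these data known, so the choice was not blind to the values. They are 9 of the 20345 protein-coding genes in the deposited table. The cells were HEK 293FT, a line derived from human embryonic kidney in which the large T antigen of SV40 is expressed. The 3 libraries titled HEK 293FTGFP-CTRB1 are called CTRB1 cells, and the 3 titled HEK 293FTGFP and marked Vec are called GFP cells, although the names of both groups hold GFP, for green fluorescent protein. CTRB1 encodes chymotrypsinogen B1, a digestive protease precursor of pancreatic acinar cells. All cells were kept in medium described only as proliferating medium, with no amino acid, serum or oxygen treatment named, and the labels state neither how CTRB1 was introduced, nor whether each line is 1 clone, nor whether the 3 libraries of a group came from separate cultures. The p-values then measure only the spread between these libraries, which may be technical.

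The CTRB1 libraries held 31557364, 32522018 and 27514767 counts and the GFP libraries 52571457, 64859210 and 159616285, so depth and group cannot be told apart. The CTRB1 gene itself had 22749, 22161 and 19345 counts in CTRB1 cells, against 1, 0 and 5 in GFP cells, as the labels have it. Of 9 genes listed for the HEK293 line, 8 were in the table and 7 had a mean of at least 1 FPKM (fragments per kilobase, scaled to depth, the authors' length-corrected level), with a summed level of 103 to 111 FPKM in CTRB1 cells and 105 to 110 FPKM in GFP cells. Markers of other cell types were low in both groups. Proximal tubule markers summed to 1.53 to 2.02 FPKM in CTRB1 cells and 2.25 to 2.57 FPKM in GFP cells, with 1 of 6 called, LRP2, and its part in the results was not tested. Fibroblast markers summed to 7.01 to 8.24 FPKM in CTRB1 cells and 6.7 to 7.36 FPKM in GFP cells, most of it COL1A1. With edgeR, 1 fibroblast marker was called higher, and 2 of the HEK293 genes were called higher and 1 lower. Of 5 acinar markers other than CTRB1, PRSS1, CELA3A, PNLIP and AMY2A were at 0 in every library. In bulk RNA, fewer cells with a transcript and less transcript per cell cannot be told apart.

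mTORC1 phosphorylates proteins that drive translation, ribosome production and lipid synthesis and holds back autophagy. Growth factors reach it through the TSC complex, which turns off the small GTPase RHEB, and amino acids reach it through the Rag GTPases on the lysosome. DDIT4 acts through the TSC complex, sestrins and CASTOR1 act on the amino acid branch through GATOR2, and AKT1S1 and DEPTOR bind the kinase complex itself. Most of this regulation is on the protein, through phosphorylation and binding, while DDIT4 and SESN2 are also known as genes switched on by stress, through factors such as ATF4, p53 and HIF1, and SESN1 and SESN3 as targets of p53 and FOXO factors.

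The promoters of the pair with the largest differences, DDIT4 and SESN2, and those of SESN1 and TSC2, whose sequences held a searched motif, are printed first. They come from RefSeq on GRCh38.p14 and run from 250 bases before to 50 bases after an annotated start. Of the 9 genes, 7 had a promoter there, 10 promoters in all, and AKT1S1 and DEPTOR were not among them. Capitals mark matches to a searched motif.
DDIT4 chr10:72273674-72273973, plus strand: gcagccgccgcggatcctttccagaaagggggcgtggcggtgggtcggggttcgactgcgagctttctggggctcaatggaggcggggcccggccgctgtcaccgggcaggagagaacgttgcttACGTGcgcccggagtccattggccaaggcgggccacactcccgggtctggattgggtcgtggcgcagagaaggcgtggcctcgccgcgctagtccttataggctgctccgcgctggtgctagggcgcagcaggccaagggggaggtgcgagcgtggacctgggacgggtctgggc
SESN2 chr1:28259268-28259567, plus strand: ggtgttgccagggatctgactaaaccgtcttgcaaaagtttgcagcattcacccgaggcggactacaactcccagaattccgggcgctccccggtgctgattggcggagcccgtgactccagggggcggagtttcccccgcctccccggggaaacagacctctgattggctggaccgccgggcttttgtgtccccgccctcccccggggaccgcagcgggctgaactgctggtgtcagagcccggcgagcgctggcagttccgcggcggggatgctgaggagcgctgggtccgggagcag
SESN1 chr6:109008939-109009238, minus strand, the third of its promoters: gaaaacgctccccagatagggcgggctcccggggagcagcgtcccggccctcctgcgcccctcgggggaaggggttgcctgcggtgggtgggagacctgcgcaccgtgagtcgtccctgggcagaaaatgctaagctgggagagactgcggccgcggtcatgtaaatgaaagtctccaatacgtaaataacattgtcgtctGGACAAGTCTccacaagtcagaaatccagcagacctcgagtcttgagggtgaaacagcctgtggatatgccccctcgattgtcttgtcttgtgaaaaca
TSC2 chr16:2047735-2048034, plus strand, the first of its promoters: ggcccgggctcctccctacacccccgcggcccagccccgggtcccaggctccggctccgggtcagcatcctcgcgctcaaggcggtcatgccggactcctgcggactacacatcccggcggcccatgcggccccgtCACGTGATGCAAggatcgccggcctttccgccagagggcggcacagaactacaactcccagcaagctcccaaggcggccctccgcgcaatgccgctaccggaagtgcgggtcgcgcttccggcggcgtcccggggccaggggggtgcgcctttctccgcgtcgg
Both strands were searched for 4 motifs. These were TGATGNAA, bound by ATF4 with a C/EBP partner, and ACGTG, the core of the hypoxia response element. The others were GTAAACA, bound by forkhead factors, and the p53 decamer, which is only a part of a full p53 site. ACGTG began at position -125 from the DDIT4 start, in a promoter of 69.7% GC. It lay on both strands of the TSC2 promoter at -113 and -114, overlapping TGATGCAA, a match to the ATF4 motif, at -110. The printed SESN1 promoter held 1 match to the p53 decamer, GGACAAGTCT, at -49. The SESN2 promoter, of 67.0% GC, and those of SESN3, TSC1 and CASTOR1 held none of the 4 motifs. Among 35116 promoters of the same length, TGATGNAA was found in 3.62%, ACGTG in 21.4%, GTAAACA in 3.42% and the p53 decamer in 6.63%. The 10 promoters ranged in GC content between 45.0% and 75.0%, against a median of 58.7% for all. These matches describe letters within 300 bases, and sites elsewhere in the genes were not searched.

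In CTRB1 cells 6 of the 9 inhibitor genes were higher, 1 was lower and 2 did not pass the test. DDIT4 and SESN2 stood well above the rest, at 2.82 and 1.9 times their level in GFP cells. SESN1, DEPTOR, TSC1 and TSC2 were 1.06 to 1.41 times as high, AKT1S1 was 0.882 times as high, and SESN3 and CASTOR1 did not pass. A gene was called at an edgeR quasi-likelihood adjusted p under 0.05, with adjustment over all 11961 genes tested, and all 9 inhibitor genes were among those tested. Calls were frequent: 37.4% of all genes tested were called, 18.6% higher and 18.9% lower, and the median fold of a called gene was 1.15. The median log2 change of the 9 genes was 0.12, against 0.00 over all genes tested. Only 1.63% of all genes were called with a log2 change of at least 0.5 upward, and 0.694% downward, and DDIT4 and SESN2 were among the first. The groups' ranges of CPM, the count scaled to library size, were apart for 6 of the 9 genes upward and for AKT1S1 downward, where 25.0% of all genes were apart in each direction. The authors' deposited table put the adjusted p of 7 of the 9 below the same threshold, and these were the same genes with the same signs.

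**Figure D1:**
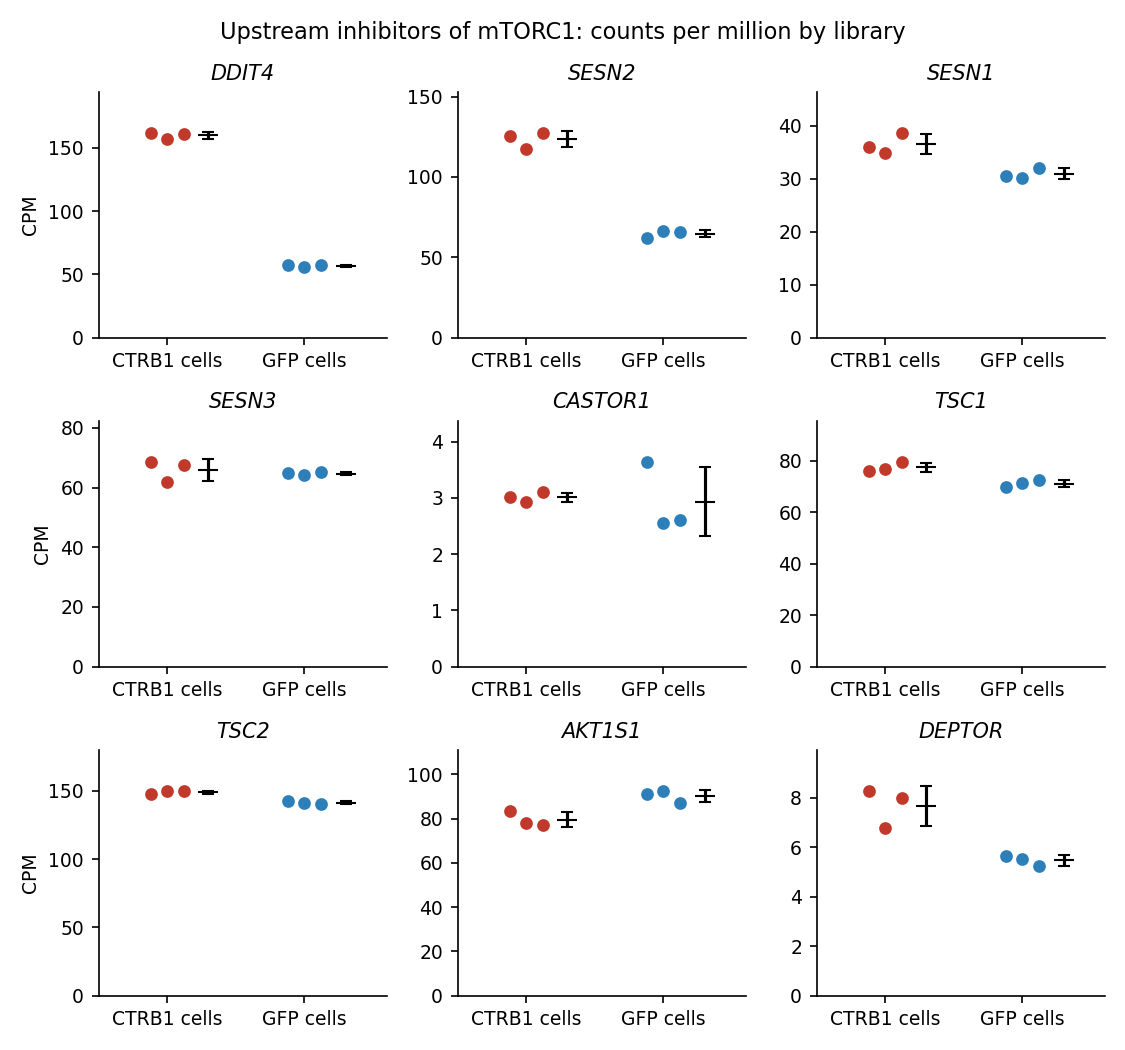
CPM of each of the 9 inhibitor genes in every library, 1 panel a gene, CTRB1 cells left and GFP cells right, with points for libraries and bars for the mean and SD (n = 3 each). The CTRB1 libraries lie clear above the GFP libraries for DDIT4 (156.9 to 161.7 against 55.5 to 57.2 CPM) and SESN2, and overlap with them for SESN3 and CASTOR1.

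DDIT4, also called REDD1, is a stress-induced protein that activates the TSC complex. It had 161.7, 156.9 and 161.2 CPM in CTRB1 cells, against 57.2, 55.5 and 57.2 CPM in GFP cells. The 3 CTRB1 libraries were within a few percent of each other and every one of them was far above every GFP library. The mean was 159.9 ± 2.67 CPM in CTRB1 cells and 56.7 ± 0.98 CPM in GFP cells (SD, n = 3 each). The log2 change was 1.50 ± 0.0265 (SE), a fold of 2.82 with a 95% interval of 2.71 to 2.94 (edgeR adjusted p = 2.29e-11). Of the 11961 genes tested, 12 had a larger log2 change, and 29, or 0.242%, were called with a change of at least 1 upward. The length-corrected level was 82.0, 78.2 and 80.5 FPKM in CTRB1 cells, against 28.9, 28.4 and 28.6 FPKM in GFP cells. By FPKM, DDIT4 ranked 719th of all genes in CTRB1 cells and 2656th in GFP cells. DDIT4 lies at 74033678 to 74035794 on chromosome 10 in the table's coordinates, whose build is not named. In GENCODE v29, 7 of the 9 genes have a gene on the opposite strand within their bounds, DDIT4 among them, and reads of such pairs cannot be separated, since no source used here says whether counting used strand. DDIT4L, the other gene of the family, had 4.14 ± 0.681 CPM in CTRB1 cells and 4.64 ± 0.218 CPM in GFP cells and was not called (log2 change -0.16, edgeR adjusted p = 0.347).

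The sestrins are stress-response proteins, and SESN2 is the leucine sensor that binds GATOR2 when leucine is scarce. SESN2 had 125.8, 117.6 and 127.4 CPM in CTRB1 cells, against 62.2, 66.3 and 65.9 CPM in GFP cells. The groups were wide apart, and the lowest CTRB1 library was well above the highest GFP library. The mean was 123.6 ± 5.24 CPM in CTRB1 cells and 64.8 ± 2.25 CPM in GFP cells (SD, n = 3 each). Its log2 change was 0.93 ± 0.0368, a fold of 1.9 with a 95% interval of 1.8 to 2.01 (edgeR adjusted p = 3.55e-08), and 36 genes had a larger one. SESN2 lies at 28586038 to 28609002 on chromosome 1.

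SESN1, a p53 target gene first described as PA26, differed far less. It had 36.0, 34.9 and 38.7 CPM in CTRB1 cells, against 30.6, 30.2 and 32.1 CPM in GFP cells, ranges that were apart. The log2 change was 0.24 ± 0.0513, a fold of 1.18 with an interval of 1.09 to 1.27 (edgeR adjusted p = 0.0045). SESN3, a FOXO target gene, had 68.6, 61.8 and 67.5 CPM in CTRB1 cells, against 64.8, 64.2 and 65.1 CPM in GFP cells. The GFP range lay within the CTRB1 range. Its log2 change was 0.03 ± 0.0393, with a fold interval of 0.959 to 1.08 (edgeR adjusted p = 0.619), so a change of the size seen for SESN2 lies outside the interval, while a change of a few percent in either direction lies within it. SESN1 lies at 109307640 to 109416022 on chromosome 6 and SESN3 at 94898704 to 94965705 on chromosome 11.

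The 3 sestrin transcripts could be added up only per length. Their summed level was 48.1, 44.6 and 47.8 FPKM in CTRB1 cells, against 29.9, 31.5 and 31.4 FPKM in GFP cells. SESN2 made up 64.9%, 64.7% and 65.8% of that sum in CTRB1 cells, against 51.8%, 52.8% and 51.8% in GFP cells. The share of SESN2 was thus higher in every CTRB1 library, while SESN1 made up 21.5% to 22.9% in CTRB1 cells against 28.0% to 29.5% in GFP cells, and SESN3 12.5% to 13.0% against 18.8% to 19.6%. SESN1 itself was at 10.4 ± 0.234 FPKM in CTRB1 cells and 8.89 ± 0.354 FPKM in GFP cells, so its smaller share goes with a higher level. Because SESN2 carries most of the sum, these shares are another view of its difference and not a separate one.

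**Figure D2:**
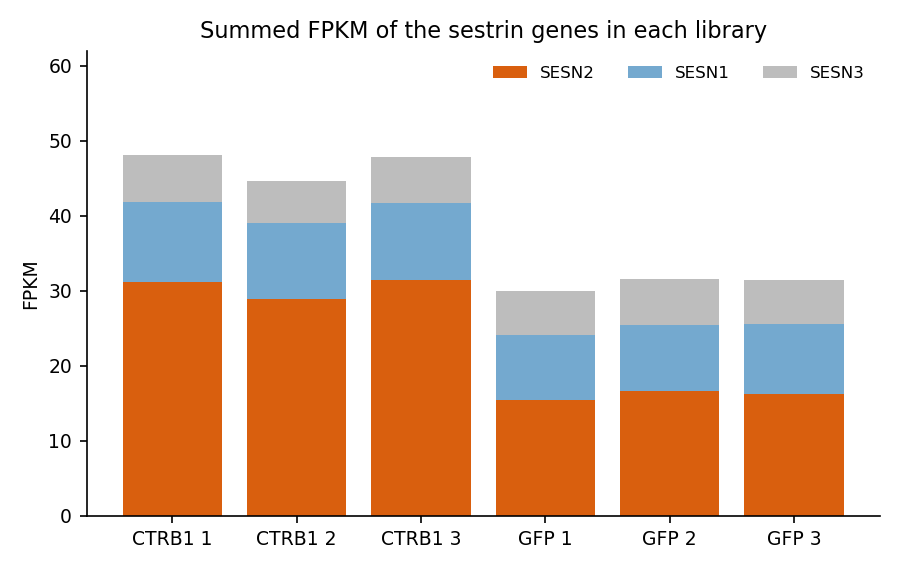
Summed FPKM of SESN2, SESN1 and SESN3 in every library, as stacked bars that start at 0, CTRB1 libraries left of GFP libraries. The CTRB1 bars reach 44.6 to 48.1 FPKM and the GFP bars 29.9 to 31.5 FPKM, and the SESN2 segment holds 64.7% to 65.8% of the CTRB1 bars and 51.8% to 52.8% of the GFP bars.

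CASTOR1, the arginine sensor that binds GATOR2 when arginine is scarce, had the lowest mean FPKM of the 9 genes in both groups. It had 3.01, 2.93 and 3.1 CPM in CTRB1 cells, against 3.64, 2.55 and 2.61 CPM in GFP cells, from 85 to 95 counts a library in CTRB1 cells and 165 to 414 in GFP cells. The CTRB1 range lay within the GFP range, in which GFP replicate 1 was highest. The log2 change was 0.05 ± 0.162, with a fold interval of 0.809 to 1.33 (edgeR adjusted p = 0.824). The spread lay in the GFP libraries, with a coefficient of variation of 20.9%, against 2.73% in CTRB1 libraries, and without GFP replicate 1 the log2 change was 0.22, still not called. The table lists CASTOR1 at 30681106 to 30685616 on chromosome 22, under its older symbol GATSL3 in 1 of its 2 name columns. A second protein-coding entry, RP1-130H16.18, shares 4390 of these bases, so reads may have been left out or divided between the pair and the CASTOR1 level is uncertain.

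TSC1 and TSC2 encode hamartin and tuberin, the scaffold and the GTPase-activating subunit of the TSC complex. TSC1 had 76.1, 76.7 and 79.6 CPM in CTRB1 cells, against 69.7, 71.2 and 72.5 CPM in GFP cells. TSC2 had 147.8, 149.8 and 149.4 CPM in CTRB1 cells, against 142.3, 141.3 and 140.1 CPM in GFP cells. For both genes every CTRB1 library was above every GFP library, by a small margin. The log2 change of TSC1 was 0.12 ± 0.0304, a fold of 1.09 with an interval of 1.04 to 1.14 (edgeR adjusted p = 0.0104). That of TSC2 was 0.08 ± 0.0218, a fold of 1.06 with an interval of 1.02 to 1.09 (edgeR adjusted p = 0.0165). TSC1 lies at 135766735 to 135820020 on chromosome 9 and TSC2 at 2097466 to 2138716 on chromosome 16. Both folds are below the median fold of a called gene, 1.15.

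The deposited FPKM values of TSC1 and TSC2 did not repeat these differences. TSC1 had 10.6, 9.37 and 9.35 FPKM in CTRB1 cells, against 8.5, 10.4 and 8.89 FPKM in GFP cells, and these ranges overlap. TSC2 had 27.8, 28.1 and 28.1 FPKM in CTRB1 cells, against 28.2, 29.9 and 28.5 FPKM in GFP cells, so by FPKM every CTRB1 library was lower. On log2(FPKM + 1), limma gave a log2 change of 0.07 for TSC1 (adjusted p = 0.528) and of -0.04 for TSC2 (adjusted p = 0.372). The ratio of CPM to FPKM varied 1.25-fold between libraries for TSC1 and 1.13-fold for TSC2. Among the other inhibitor genes it varied from 1.02-fold for DDIT4 to 1.11-fold for SESN1. TSC2 was 1 of 29 genes, 0.647% of the 4479 called, whose mean FPKM differed in the opposite direction to the counts. The call of TSC2 was also lost without GFP replicate 2 (edgeR adjusted p = 0.0631) or GFP replicate 3 (edgeR adjusted p = 0.0926). Neighbouring genes share bases with TSC2: PKD1 shares 6 bases in the table's coordinates and 778 in GENCODE v29, and NTHL1 402 in both. GENCODE v29 places both neighbours on the opposite strand. PKD1 had 120 CPM in CTRB1 cells and 101 CPM in GFP cells (log2 change 0.24, edgeR adjusted p = 0.00125), and NTHL1 was not called. The part of these neighbours in the TSC2 counts was not tested.

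AKT1S1 encodes PRAS40, a subunit that blocks substrate access to mTORC1 until AKT phosphorylates it. It was the 1 inhibitor gene that was lower. It had 83.3, 77.9 and 77.0 CPM in CTRB1 cells, against 91.0, 92.5 and 87.1 CPM in GFP cells. Every CTRB1 library lay below every GFP library. The mean was 79.4 ± 3.42 CPM in CTRB1 cells and 90.2 ± 2.76 CPM in GFP cells (SD, n = 3 each), and the log2 change was -0.18 ± 0.0366, a fold of 0.882 with an interval of 0.834 to 0.932 (edgeR adjusted p = 0.00294). The FPKM values were apart in the same direction, at 25.3 ± 0.944 FPKM in CTRB1 cells and 30.0 ± 0.862 FPKM in GFP cells. AKT1S1 lies at 50372295 to 50381716 on chromosome 19. It shares 1035 bases with TBC1D17, which GENCODE v29 places on the opposite strand and which was not called (log2 change 0.13, edgeR adjusted p = 0.102).

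DEPTOR encodes an inhibitor bound to the mTOR kinase in both of its complexes. It had 8.27, 6.76 and 7.98 CPM in CTRB1 cells, against 5.65, 5.51 and 5.23 CPM in GFP cells, from 219 to 261 counts a library in CTRB1 cells and 295 to 830 in GFP cells. All CTRB1 libraries were higher, but they were spread more widely than the GFP libraries. The log2 change was 0.49 ± 0.104, a fold of 1.41 with an interval of 1.2 to 1.65 (edgeR adjusted p = 0.004). The 2 inhibitors held within the complex therefore differed in opposite directions, and the level of AKT1S1 was 9.34, 11.2 and 9.2 times that of DEPTOR by FPKM in CTRB1 cells, against 16.1, 16.0 and 16.5 times in GFP cells.

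**Figure D3:**
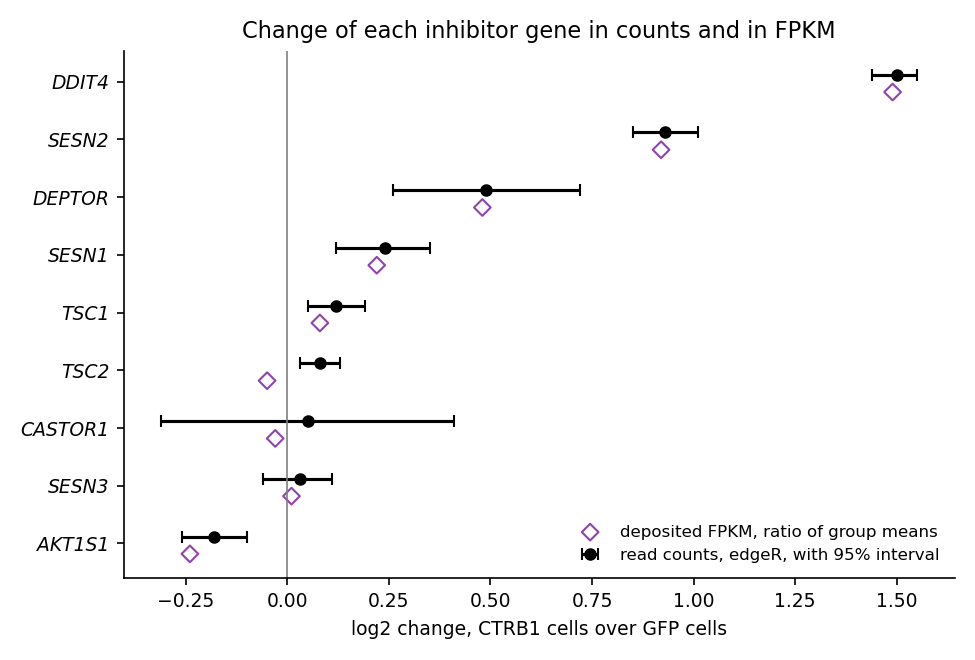
Log2 change of each inhibitor gene, CTRB1 over GFP cells, from edgeR on the counts, with bars for the 95% interval, and as diamonds the log2 ratio of the mean FPKM values. DDIT4 at 1.50 and SESN2 at 0.93 lie far right of the other genes, AKT1S1 at -0.18 lies left of 0, and the intervals of SESN3 and CASTOR1 span 0. The diamond of TSC2 lies left of 0, at -0.05.

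Per length, the order of the levels differed between the groups. By mean FPKM, DDIT4 was at place 1 in CTRB1 cells and 3 in GFP cells, SESN2 at 2 and 4, and AKT1S1 at 4 and 1. In CTRB1 cells DDIT4 was highest at 80.3 ± 1.92 FPKM, and SESN2 followed at 30.5 ± 1.43 FPKM. TSC2 came next at 28.0 ± 0.166 FPKM and AKT1S1 after it at 25.3 ± 0.944 FPKM. SESN1 at 10.4 ± 0.234 FPKM and TSC1 at 9.79 ± 0.738 FPKM had overlapping ranges, and were the only neighbours in this order that did. SESN3 at 5.97 ± 0.359 FPKM, DEPTOR at 2.58 ± 0.313 FPKM and CASTOR1 at 1.67 ± 0.0973 FPKM closed it. In GFP cells AKT1S1 at 30.0 ± 0.862 FPKM, TSC2 at 28.9 ± 0.912 FPKM and DDIT4 at 28.6 ± 0.246 FPKM stood together, each overlapping the next, and SESN2 followed at 16.1 ± 0.593 FPKM. TSC1 at 9.28 ± 1.03 FPKM and SESN1 at 8.89 ± 0.354 FPKM overlapped. SESN3 was at 5.94 ± 0.0931 FPKM, apart from its neighbours on both sides, and DEPTOR at 1.85 ± 0.0824 FPKM overlapped with CASTOR1 at 1.71 ± 0.371 FPKM. DDIT4 alone made up 41.1%, 41.4% and 41.3% of the summed FPKM of the 9 genes in CTRB1 cells, against 22.2%, 21.2% and 22.1% in GFP cells.

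**Figure D4:**
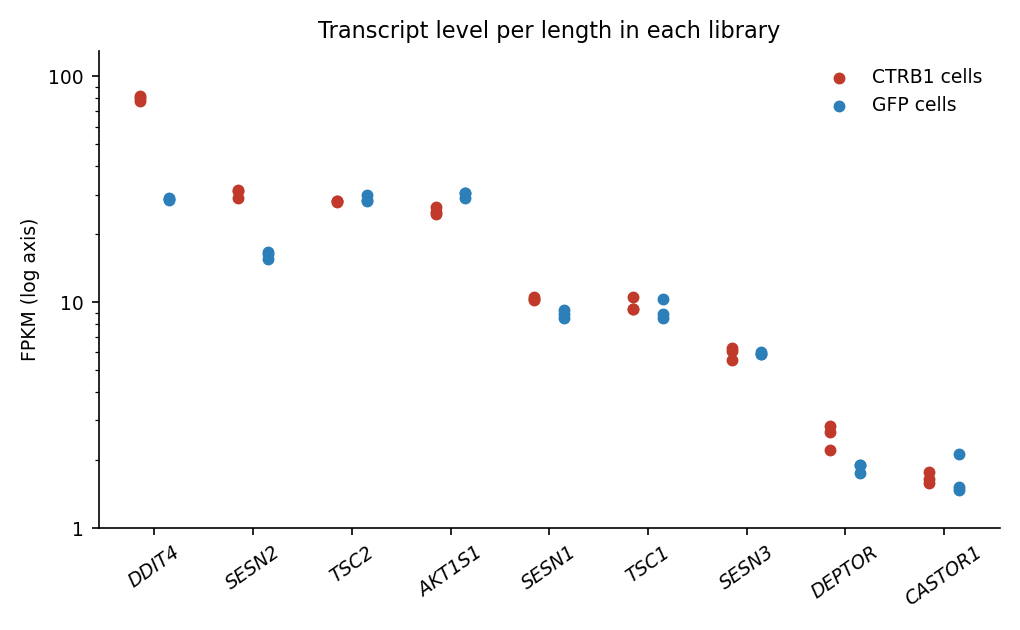
FPKM of the 9 inhibitor genes on a log axis, with a point for each library, CTRB1 cells placed before GFP cells. DDIT4 stands alone at 78.2 to 82.0 FPKM in CTRB1 cells, while in GFP cells it lies at 28.4 to 28.9 FPKM beside TSC2 and AKT1S1.

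The genes whose pattern over the 6 libraries was most like that of DDIT4 were found by the Euclidean distance of log2 CPM, centred per gene on the GFP mean, among 11949 genes. With groups this far apart, such a distance mostly measures how alike the differences between the groups are. SLC7A11, the cystine transporter, was nearest at a distance of 0.177, with a log2 change of 1.40. PCK2, the mitochondrial phosphoenolpyruvate carboxykinase, followed at 0.189, CTH, an enzyme that makes cysteine, at 0.247, ADM2, a peptide hormone gene, at 0.285 and CHAC1, which degrades glutathione, at 0.302. CTH had 78.4 CPM in CTRB1 cells and 30.3 CPM in GFP cells. For SESN2 the nearest genes were SLC1A4, a transporter of neutral amino acids, at 0.17, SYT15, a synaptotagmin, also at 0.17, STC2, a secreted glycoprotein, at 0.179, PSAT1, of serine synthesis, at 0.19 and SLC7A7, a transporter of cationic amino acids, at 0.22. STC2 had 177 CPM in CTRB1 cells and 93.6 CPM in GFP cells. The likeness of SYT15 is in counts alone, as its mean FPKM differed in the opposite direction, at 2.82 in CTRB1 cells and 4.01 in GFP cells.

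The other genes of the mTORC1 pathway moved little. Over the 10 lists of its parts, 80 genes other than the 9 were tested. Of these, 19 were higher and 14 lower, or 23.8% and 17.5%, against 18.6% and 18.9% of all genes, and their median log2 change was 0.02, against 0.00 over all genes. Only EIF4EBP1 changed by 0.5 or more on the log2 scale. The lists were chosen with earlier results of these data known, and no set test was run. Where a list had no gene called in a direction with edgeR, the count was also 0 at an unadjusted p under 0.05, with DESeq2 and with limma on FPKM.

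Among the proteins that the inhibitors act on, the kinase complex itself had 3 other genes tested. MLST8, its WD40 subunit, was higher, at 89.0 ± 1.78 CPM in CTRB1 cells and 77.9 ± 2.39 CPM in GFP cells (log2 change 0.19, edgeR adjusted p = 0.00079). MTOR and RPTOR were not called, with log2 changes of 0.04 and 0.02. Of 5 other genes of mTORC2, MLST8 was higher and MAPKAP1 and PRR5 were lower (log2 change -0.13 and -0.19, edgeR adjusted p = 0.00393 and 0.0235). PRR5 was not called without CTRB1 replicate 2 or 3 or GFP replicate 2 or 3, and 2 of the mTORC2 genes were higher without CTRB1 replicate 2. None of the 3 other genes listed with the TSC complex was called with edgeR on all libraries. RHEB, the GTPase it turns off, had a log2 change of -0.06 (edgeR adjusted p = 0.149), which ran between -0.10 and -0.03 with 1 library left out and was called lower without CTRB1 replicate 3 (edgeR adjusted p = 0.044).

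On the amino acid branch, the Rag GTPase, Ragulator and folliculin list had 8 of 13 genes lower, none higher and a median log2 change of -0.14. RRAGA, a Rag GTPase, had 66.9 ± 1.05 CPM in CTRB1 cells and 79.4 ± 0.593 CPM in GFP cells (log2 change -0.25, edgeR adjusted p = 7.83e-05). LAMTOR5, a Ragulator subunit, had 63.7 ± 2.4 CPM in CTRB1 cells and 76.7 ± 0.89 CPM in GFP cells (log2 change -0.27, edgeR adjusted p = 0.000141). LAMTOR3, of Ragulator, and RRAGC, a Rag GTPase, were lower (log2 change -0.18 and -0.21, edgeR adjusted p = 0.00222 and 0.00276). The count of genes lower was 5 without CTRB1 replicate 3 and 4 without GFP replicate 3, and 1 gene was higher without CTRB1 replicate 1. Of 7 genes of GATOR1, the GTPase-activating complex for RagA, and of its KICSTOR anchor, 3 were higher, among them DEPDC5 and ITFG2 (log2 change 0.27 and 0.25, edgeR adjusted p = 0.0107 and 0.028), though the call of ITFG2 was lost in 7 of 13 alternative analyses and the count was 1 with limma on FPKM. Of 5 genes of GATOR2, the complex that sestrins and CASTOR1 bind, SEH1L was lower (log2 change -0.12, edgeR adjusted p = 0.00573). Among 5 other amino acid sensor genes, LARS1, the leucyl-tRNA synthetase, was higher by 0.21 (edgeR adjusted p = 7.49e-05), SAR1A was lower (log2 change -0.26, edgeR adjusted p = 2.62e-05), and SAR1B had a log2 change of -0.08 whose call was lost in 10 of 13 alternatives.

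Of 21 tested genes for kinases upstream of the TSC complex and their subunits, 7 were higher and none lower with edgeR, with a median log2 change of 0.05. The 4 with the smallest adjusted p were PRKAG1, PRKAB2 and PRKAA1, subunits of the energy sensor AMPK, with log2 changes of 0.22, 0.23 and 0.19, and STK11, the LKB1 kinase, with 0.16 (edgeR adjusted p = 0.000229, 0.000286, 0.000432 and 0.000398). The AMPK subunit genes PRKAA2, PRKAG2 and PRKAB1, named after their values were seen, were not called (log2 change 0.10, 0.03 and -0.07, edgeR adjusted p = 0.0515, 0.707 and 0.34). With limma on FPKM the count of genes higher was 4. Downstream, 7 of 19 genes of mTORC1 substrates and effectors were higher and 1 was lower with edgeR. With limma on FPKM, 5 were higher and 2 lower. EIF4EBP1, the translation repressor that mTORC1 inactivates, had 152 ± 2.75 CPM in CTRB1 cells and 93.7 ± 2.07 CPM in GFP cells (log2 change 0.70, edgeR adjusted p = 2.32e-08). PDCD4, an inhibitor of the helicase eIF4A, had 164 ± 2.23 CPM in CTRB1 cells and 121 ± 3.32 CPM in GFP cells (log2 change 0.44, edgeR adjusted p = 8.25e-07). GRB10, an adaptor that mTORC1 phosphorylates, was higher by 0.47 (edgeR adjusted p = 1.57e-06). EIF4G1, the scaffold of the cap-binding complex, had 600 ± 10 CPM in CTRB1 cells and 728 ± 5.55 CPM in GFP cells (log2 change -0.28, edgeR adjusted p = 4.05e-06).

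The factors known to act on DDIT4 and sestrin genes have targets of their own. Of 20 other genes of the ATF4 pathway, 16 were higher and none lower with edgeR, with a median log2 change of 0.51. ASNS, the asparagine synthetase, was higher by 1.25 on the log2 scale, SLC7A11 by 1.40, PSAT1 by 0.98 and PHGDH by 0.60 (edgeR adjusted p = 2.29e-11, 1.47e-10, 8.73e-10 and 1.51e-08). The 4 not called were EIF2AK1, EIF2AK2, EIF2AK3 and EIF2AK4, the eIF2 kinases upstream of ATF4, named after their values were seen.

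Of 11 other p53 genes tested, 7 were higher and none lower, with a median log2 change of 0.19. Those higher included BBC3, the gene of the cell death protein PUMA (log2 change 0.62, edgeR adjusted p = 0.00015), the DNA damage recognition gene DDB2 (log2 change 0.49, edgeR adjusted p = 0.00104) and TP53INP1 (log2 change 0.44, edgeR adjusted p = 0.00207). The 4 not called were CDKN1A, MDM2, BAX and FAS, named after their values were seen. Their log2 changes were 0.18, 0.04, -0.03 and 0.15 (edgeR adjusted p = 0.0754, 0.184, 0.616 and 0.245). The count of p53 genes higher was 4 with limma on FPKM, and 1 was lower without CTRB1 replicate 2. The SV40 large T antigen that this line carries binds p53.

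Over all genes tested, 18.6% were called higher and 18.9% lower with edgeR, and 10.5% and 16.2% with limma on FPKM. Of 11 FOXO genes, 3 were higher and 2 lower. TXNIP, an inhibitor of thioredoxin, was higher by 0.58 (edgeR adjusted p = 4.12e-05) while CITED2 was lower (log2 change -0.32, edgeR adjusted p = 0.000666). The count of FOXO genes higher was 1 without GFP replicate 1 or 2 and with limma on FPKM. The count lower was 1 when any single library other than CTRB1 replicate 1 was left out, and with limma on FPKM. Of 11 hypoxia genes, 2 were higher and 3 lower. VEGFA, the endothelial growth factor, was higher by 0.78 (edgeR adjusted p = 6.65e-07) and SLC2A1, a glucose transporter, was lower (log2 change -0.22, edgeR adjusted p = 0.00828), as was HIF1A (log2 change -0.18, edgeR adjusted p = 0.000869). The count of hypoxia genes higher was 1 without GFP replicate 3 and with limma on FPKM. Of 5 glucocorticoid genes, 2 were higher and none lower with edgeR. TSC22D3 was higher by 0.30 (edgeR adjusted p = 6.71e-06) and KLF9 by 0.14 (edgeR adjusted p = 0.024), and KLF9 was not called without CTRB1 replicate 1, GFP replicate 2 or GFP replicate 3, or with limma on FPKM.

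**Figure D5:**
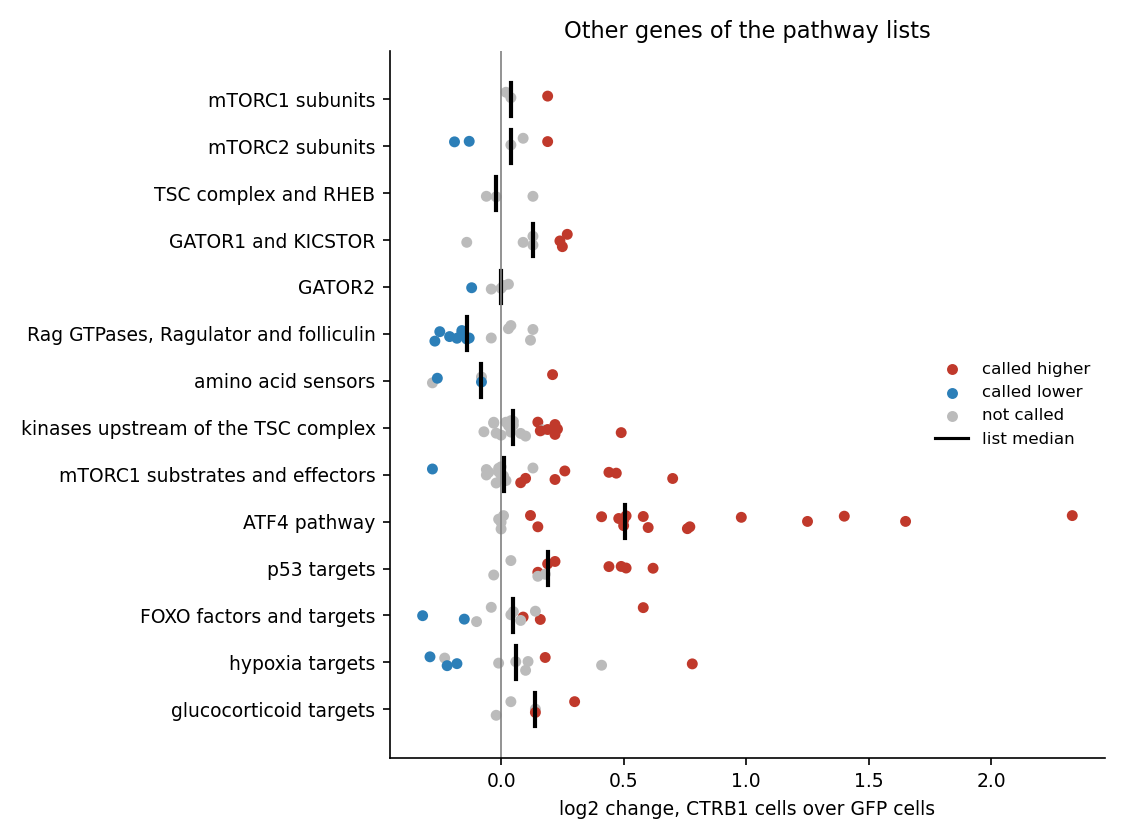
Log2 change, CTRB1 over GFP cells, of every tested gene in each pathway list other than the 9 inhibitor genes, 1 line a list of at least 3 such genes, with red points for genes called higher, blue for lower, grey for not called, and a bar at the median. The ATF4 pathway lies furthest right, with a median of 0.51, and the Rag GTPase, Ragulator and folliculin list lies left of 0, with a median of -0.14.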

How the data were processed

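RNA from 6 HEK 293FT libraries was analysed from 1 deposited table, which gives read counts per gene, the authors' FPKM and TPM values, their mean read signal per group, and their own log2 fold change with p-value and adjusted p-value, per the file headers. TPM gave the same order of the 9 levels in both groups. Per the submitters' processing notes, the tools were HISAT2 2.2.1, HTSeq 0.6.1 and cutadapt 1.9.1, with roles left unsaid, and the build was the mouse GRCm38.p5, while all gene identifiers are human; the build behind the table's coordinates, the strand setting of counting and the tool behind FPKM are not given in the sources used here. An unstated strand setting can add reads of opposite-strand neighbours to a gene, and an FPKM that is not the count over 1 fixed length can move against it.

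Groups follow the titles. Genes with FPKM of at least 1 in at least 3 of 6 libraries, 11961 of 20345, were tested with edgeR 4.0.16 in R 4.3.3 (TMM, 0.9964 to 1.004, quasi-likelihood F test, CTRB1 over GFP cells, no covariates, Benjamini-Hochberg over all genes tested, adjusted p under 0.05), after a test on simulated data. The table lists 2370 genes with no count. CPM uses TMM library sizes, and a floor of 3 counts, which covers counting error only, was 0.0923 to 0.109 CPM in CTRB1 and 0.0188 to 0.0573 CPM in GFP libraries. The 9 genes had 85 to 22233 counts a library. No pair of libraries agreed within sampling noise: chi-square per degree of freedom was 5.72 to 8.17 within groups. The labels give all libraries the same batch entry. Alternatives, 13 in all, were DESeq2 1.42.0, the replicate block, a filter at mean FPKM 5, no filter, DESeq2 size factors in edgeR, each library left out in turn, and limma 3.58.1 on log2(FPKM + 1) or log2(FPKM + 0.1).

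The genes and the 15 gene lists were chosen with earlier results of these data known. The text names all 9 genes; from each list, the first 4 called genes by adjusted p, or the first 2 by p in lists without a call; and the 5 genes nearest to DDIT4 and to SESN2. Not every gene so selected is named. MTOR, RPTOR, PKD1, NTHL1, TBC1D17, the AMPK genes PRKAA2, PRKAG2 and PRKAB1, and the 4 eIF2 kinase genes were named after their values were seen. So were the p53 genes CDKN1A, MDM2, BAX and FAS.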

Additional observations from a re-analysis of the deposited data

How the results depend on the processing

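DDIT4, SESN2, SESN1, DEPTOR and AKT1S1 kept their direction and their call in every alternative in which they were tested; DEPTOR and CASTOR1 were not tested at a mean FPKM of at least 5. With 1 library left out, the log2 change was 1.48 to 1.51 for DDIT4, 0.90 to 0.96 for SESN2, 0.19 to 0.27 for SESN1, 0.43 to 0.57 for DEPTOR, -0.22 to -0.16 for AKT1S1, 0.10 to 0.13 for TSC1 and 0.07 to 0.08 for TSC2. With limma on log2(FPKM + 1) and log2(FPKM + 0.1), the change of TSC1 was 0.07 and 0.08 (adjusted p = 0.528 and 0.525) and that of TSC2 -0.04 and -0.04 (adjusted p = 0.372 and 0.373). Counts and FPKM differ for these genes as the report gives, and the cause was not tested. The values that did not pass changed sign: CASTOR1 was at -0.00983 and -0.00915 with the limma fits and at -0.03 to 0.22 with 1 library left out, and SESN3 at -0.00308 to 0.07. RHEBL1, not called, was at -0.02 to 0.31 with 1 library left out, and SYT15 at -0.39 and -0.49 with the limma fits. Of the 9 genes, 5 or 6 were called higher with 1 library left out and 4 with the limma fits, and AKT1S1 alone was called lower in all 13. Over all genes, 1250 were called higher and 1942 and 1935 lower with the limma fits, against 2221 and 2258 with edgeR on the counts; with 1 library left out, 1605 to 2134 were called higher and 1728 to 2256 lower. The replicate numbers did not pair the libraries: same-numbered libraries had correlations of deviations of -0.084, -0.0144 and -0.09, and no library correlated best with its own number. With the numbers as a replicate block, 2119 genes were called higher and 2201 lower, and 6 and 1 of the 9 genes. The median log2 change of all genes moved by less than 0.1 in every alternative. Calls of smaller named changes were lost in 5 of 13 alternatives for PRR5 and KLF9, and in 3 of 12 for DEPDC5. CASTOR1 and DEPTOR had the fewest counts, 85 and 219 in their lowest library, and what limits their precision was not tested.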
